A study of Mus musculus with 24 samples.

Results

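The loss of *Chd4* on top of the loss of *Brg1* was examined in liver sinusoidal endothelial cells (LSECs) of the mouse embryo, by setting the 3 *Brg1/Chd4-ECdko* LSEC libraries against the 3 *Brg1-ECko* LSEC libraries of a series of 24 libraries. The series holds RNA of 12 LSEC and 12 non-EC liver cell samples at embryonic day 12.5, with 4 genotypes and 3 replicates in each. *Brg1-ECko* embryos were Chd4 fl/+, Brg1 fl/fl and positive for VE-cadherin-Cre. *Brg1/Chd4-ECdko* embryos were Chd4 fl/fl, Brg1 fl/fl and positive for VE-cadherin-Cre, so both groups shared the Cre transgene and the loss of both *Brg1* alleles, and differed by the second floxed *Chd4* allele. *Chd4-ECko* embryos were Chd4 fl/fl, Brg1 fl/+ and Cre-positive, and controls were Cre-negative littermates. Embryos of both sexes on a mixed genetic background were used without separation. VE-cadherin-Cre acts in endothelial cells and in blood cells that arise from endothelium, and the bead selection for CD146, an adhesion molecule of endothelial cells, enriches LSECs without leaving them pure. Values are TPM (transcripts per 1000000), which divide the reads of a gene by its length and set the total of each library to the same 1000000, so the depth that each library reached cannot be read from them; the study's methods name a single nominal depth for its sequencing. Of 25361 genes in the table, 13444 reached 1 TPM in at least 3 of the 12 LSEC libraries and were tested. Replicate libraries are understood to come from separate embryos, and p-values measure the spread between them.

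CHD4 is the ATPase of the NuRD complex, which couples nucleosome remodelling with histone deacetylation and is best known for keeping genes silent. BRG1, encoded by *Smarca4*, is an ATPase of the SWI/SNF (BAF) complexes, which open chromatin and often act against such repressors. The comparison asks which genes rise when *Chd4* is removed from endothelium that already lacks BRG1. A second comparison, of *Chd4-ECko* with control LSECs, uses libraries that the first comparison does not. Its groups differ by the Cre transgene and 1 deleted *Brg1* allele as well as by both *Chd4* alleles. Their sex make-up differs too. The Y-linked gene *Eif2s3y* was at 33.1, 64.2 and 23.8 TPM in control and at 31.3, 34.9 and 0.520 TPM in *Chd4-ECko* LSECs. These differences cannot be told apart, so the second comparison does not isolate the loss of *Chd4*.

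The added loss of *Chd4* raised 13 genes in LSECs and lowered none (0.00%). The 13 were led by the embryonic globin gene *Hbb-bh1*, the germ cell transcription factor gene *Tcfl5*, the cardiac troponin gene *Tnni3* and the tumour antigen gene *Trap1a*. They were differentially expressed genes (DEGs) by the thresholds of a log2 fold change above 1 and an adjusted p under 0.05, from limma on log2(TPM + 1) with Benjamini-Hochberg adjustment over all tested genes. DEGs were 0.0967% of the tested genes. The count rested on single libraries, with 31 DEGs when *Brg1-ECko* replicate 1 was left out, 5 without *Brg1/Chd4-ECdko* replicate 2 and 4 without its replicate 3. *Hbb-bh1*, *Tcfl5*, *Nefh* and *Septin1* passed whichever of the 6 libraries was left out, *Trap1a* lost its call without *Brg1/Chd4-ECdko* replicate 3, and the others lost theirs without its replicate 2 and without its replicate 3. At an unadjusted p under 0.05, 678 genes (5.04%) were higher and 142 genes (1.06%) lower. Over all tested genes, 7.48% were higher without overlap between the 3 *Brg1/Chd4-ECdko* and 3 *Brg1-ECko* values and 1.52% lower. None of the 13 overlapped, which their choice by fold change and p in these libraries largely fixes. An exact two-sided permutation test of 3 libraries against 3 cannot give a p below 0.10. Over all tested genes, 66.4% were above a log2 fold change of 0 and the median was 0.07. This shift rested on single libraries, with 49.1% and a median of -0.0039 without *Brg1/Chd4-ECdko* replicate 3 and 77.4% and a median of 0.14 without its replicate 1.

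The genotypes could not be read from the deleted genes themselves. *Chd4* stood at 351, 225 and 272 TPM in *Brg1-ECko* against 242, 249.8 and 256 TPM in *Brg1/Chd4-ECdko* LSECs, a log2 fold change of -0.16 ± 0.17 (SE, adjusted p = 0.98 in limma). *Smarca4* stood at 157, 111 and 127 TPM in *Brg1-ECko* against 130.5, 117 and 151 TPM in *Brg1/Chd4-ECdko* LSECs. The values of both genes overlapped between the groups. TPM over the whole gene also count transcripts that lack only the floxed exons, so these values do not check the labels.

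One library stood apart. *Brg1-ECko* replicate 1 held 12314 TPM of *Afp*, the fetal albumin-like protein of hepatoblasts, where the other 5 libraries held 2147 to 3513 TPM. The sum of 4 hepatoblast markers (*Afp*, *Alb*, *Ttr*, *Hnf4a*) was 22837 TPM in that library and 3811 to 6258 TPM in the other 5. The sum of 7 LSEC markers (*Cdh5*, *Pecam1*, *Kdr*, *Stab2*, *Lyve1*, *Mcam*, *Oit3*) was 867 TPM there and 1129 to 1576 TPM in the others, and all 7 were detected in all 6 libraries. Without that library, 25 genes were higher (0.186% of tested genes) and 6 lower (0.0446%), and 12 of the 13 DEGs passed again, with *Catsperz* at an adjusted p of 0.052 in limma. In bulk RNA, fewer cells of a type and less RNA per cell cannot be told apart.

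**Figure D1:**
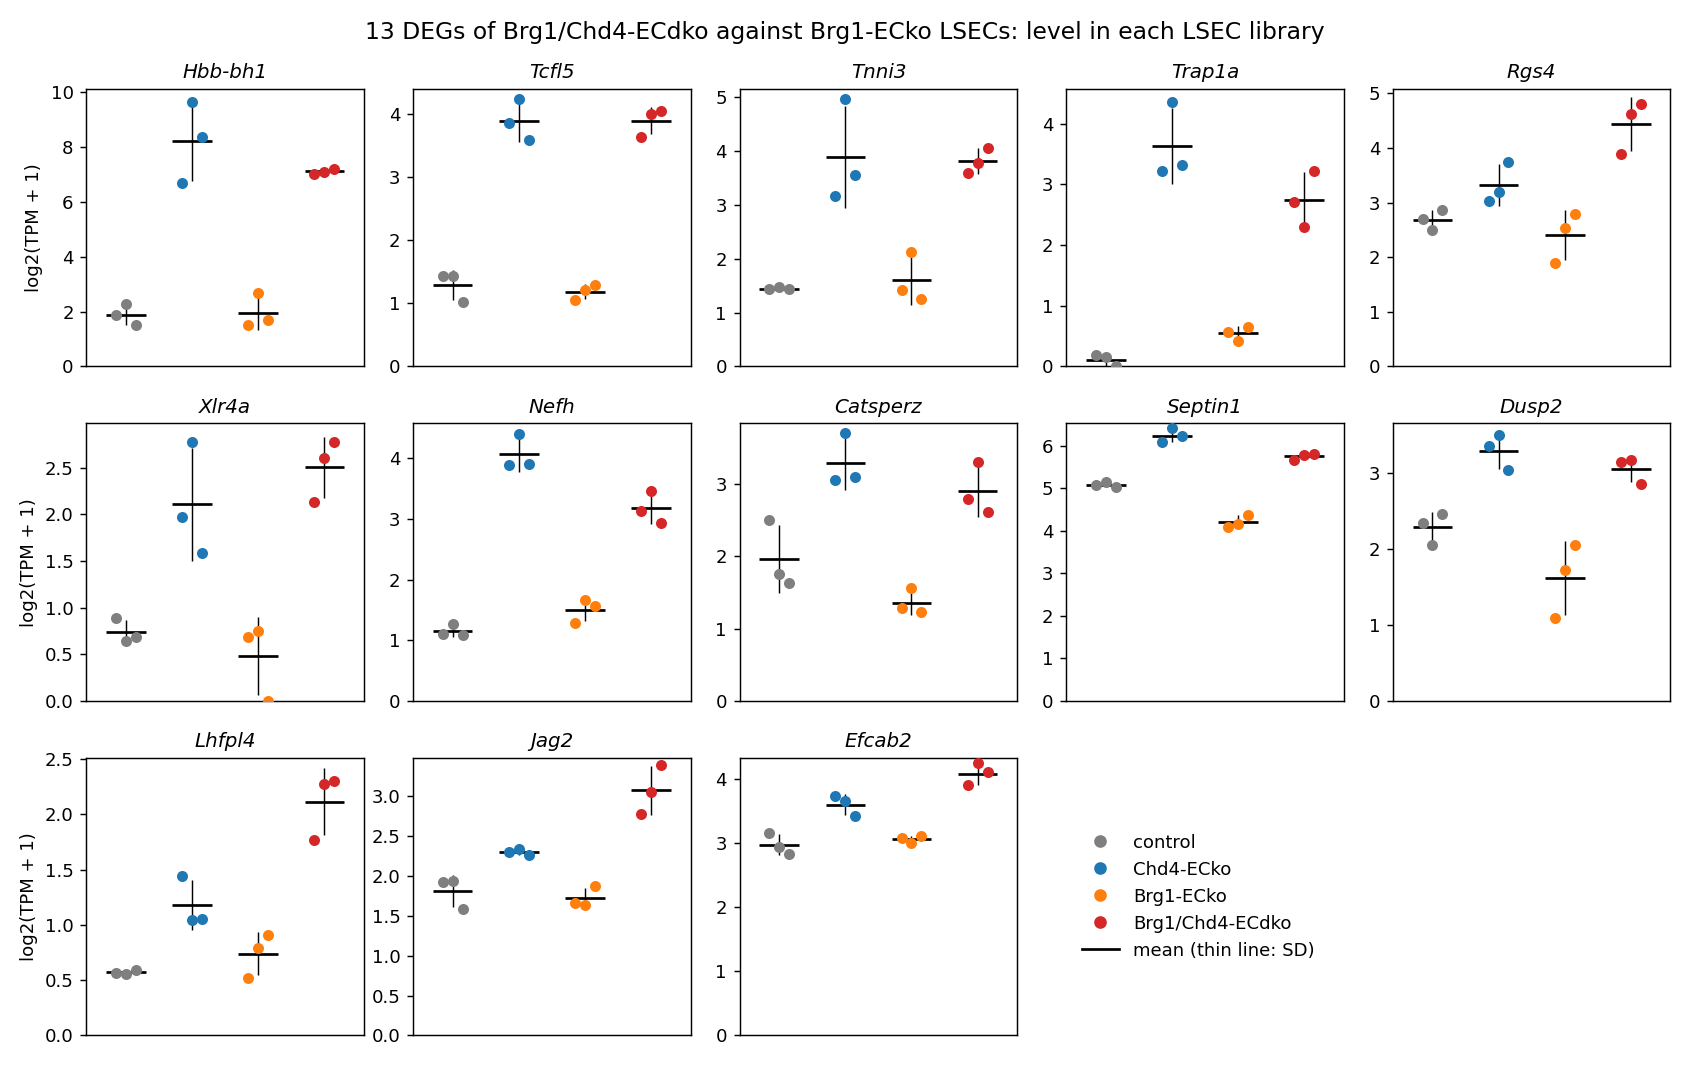
Level of each of the 13 DEGs in every LSEC library, as log2(TPM + 1) on the vertical axis, for the 4 genotypes, from control on the left to *Brg1/Chd4-ECdko* on the right. Points are libraries, thick bars are means and thin lines the SD of 3 libraries; in every panel the 3 *Brg1/Chd4-ECdko* points lie above the 3 *Brg1-ECko* points and above the 3 control points.

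Globin genes switch during development from embryonic to adult forms, and the embryonic genes *Hbb-bh1*, *Hbb-y* and *Hba-x* are made by primitive red blood cells. *Hbb-bh1* (chr7:103490844-103492371, GRCm39, minus strand) measured 1.84, 5.40 and 2.21 TPM in *Brg1-ECko* against 129.6, 135 and 146 TPM in *Brg1/Chd4-ECdko* LSECs, a ratio of means of 43.4. The 3 *Brg1/Chd4-ECdko* values lay close together, while the 3 *Chd4-ECko* values spread over 102, 789 and 328 TPM. The log2 fold change was 5.15 ± 0.52 (SE, limma adjusted p = 5.3e-04) against *Brg1-ECko* and 6.34 ± 0.52 for *Chd4-ECko* against control. *Hba-x*, the embryonic alpha-like globin, was 18.2, 13.3 and 22.8 TPM in *Brg1-ECko* against 113, 63.1 and 101 TPM in *Brg1/Chd4-ECdko* LSECs, with no overlap, and its adjusted p of 0.056 (log2 fold change 2.28) missed the threshold. *Hbb-y*, the embryonic beta-like globin, was 27.6, 31.8 and 24.3 TPM and 54.3, 63.4 and 78.0 TPM, again with no overlap (log2 fold change 1.19, adjusted p = 0.62). All 3 embryonic globins were therefore higher in each *Brg1/Chd4-ECdko* library than in any *Brg1-ECko* library, which held for 7.48% of all tested genes. Of the 3, 1 passed the test, against 0.0967% of all tested genes. Of the 4 adult globin genes, 0 had a log2 fold change above 0 and 0 passed in either direction. Their median of -0.17 turned to 0.48 without *Brg1-ECko* replicate 2 and became -0.73 without its replicate 3 and -0.28 without its replicate 1. Of 20 other tested red blood cell genes, 0 passed and 9 were above 0, against 66.4% of all tested genes. That count rested on single libraries, with 15 above 0 without *Brg1-ECko* replicate 1, 14 without its replicate 2, 2 without its replicate 3 and 16 without *Brg1/Chd4-ECdko* replicate 3. The red blood cell markers *Alas2*, *Hba-a1* and *Hbb-bt* summed to 181 to 467 TPM in *Brg1/Chd4-ECdko* and 172 to 1049.8 TPM in *Brg1-ECko* LSECs, with none at 0, and 0 of the 3 separated the groups. Globin genes of 1 cluster resemble each other, and how the authors' counting shared reads between them is not given in the sources used here.

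Among the genes best known from the germ line, *Tcfl5* and *Trap1a* rose. *Tcfl5* (chr2:180263529-180284556, minus strand) encodes a basic helix-loop-helix transcription factor of spermatogenesis. It measured 1.08, 1.31 and 1.45 TPM in *Brg1-ECko* against 11.5, 14.98 and 15.4 TPM in *Brg1/Chd4-ECdko* LSECs. Those levels were next to the 13.5, 17.8 and 10.96 TPM of *Chd4-ECko* and far from the 1.69, 1.70 and 1.02 TPM of controls. Its log2 fold change was 2.71 ± 0.20 (SE, limma adjusted p = 3.4e-05), the smallest p of the comparison, and 2.60 ± 0.20 in *Chd4-ECko* against control. *Trap1a* (chrX:138234367-138238920, plus strand) encodes a tumour rejection antigen that most normal tissues lack. It measured 0.478, 0.337 and 0.575 TPM in *Brg1-ECko*, 5.56, 3.93 and 8.30 TPM in *Brg1/Chd4-ECdko* and 8.36, 19.5 and 9.02 TPM in *Chd4-ECko* LSECs. In controls it measured 0.139, 0.111 and 0 TPM. Its log2 fold change was 2.20 ± 0.29 (SE, adjusted p = 0.0067). *Catsperz* (chr19:6899739-6902748, minus strand), a subunit gene of the sperm calcium channel, rose from 1.44, 1.96 and 1.35 TPM to 5.96, 8.92 and 5.14 TPM (log2 fold change 1.55 ± 0.26 SE, adjusted p = 0.043), and its call was lost when any 1 of the 6 libraries was left out. Controls held 4.65, 2.38 and 2.09 TPM of *Catsperz*.

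*Xlr4a* (chrX:72117936-72126140, minus strand) belongs to an X-linked lymphocyte-regulated family that lies in several similar copies. It measured 0.606, 0.684 and 0 TPM in *Brg1-ECko* against 3.38, 5.06 and 5.83 TPM in *Brg1/Chd4-ECdko* LSECs (log2 fold change 2.02 ± 0.30 SE, limma adjusted p = 0.015). The other tested *Xlr3* and *Xlr4* genes were looked up after these values were seen. *Xlr4b*, *Xlr4c* and *Xlr3b* had log2 fold changes of 1.59, 1.37 and 1.18, *Xlr3a* and *Xlr3c* had 0.44 and 0.61, and none of the 5 passed. *Xlr4b* stood at 2.24, 2.51 and 1.54 TPM in *Brg1-ECko* against 3.97, 11.5 and 11.8 TPM in *Brg1/Chd4-ECdko* LSECs. Reads shared between such copies leave the value of any 1 of them uncertain. The Y-linked gene *Eif2s3y* was at 31.3, 0.874 and 0.683 TPM in *Brg1/Chd4-ECdko* and at 0.690, 1.73 and 19.9 TPM in *Brg1-ECko* replicates 1 to 3, so each group mixed libraries with and without it. *Xlr4a* did not pass with *Eif2s3y* as a covariate. Of a wider list of 24 germ line and cancer-testis genes, 8 reached the level needed for testing and 2 of them passed. Some of the 8, *Trap1a* and *Tex19.1* among them, reached it only in *Chd4*-deficient LSECs, so the list is not set against all tested genes. *Tex19.1*, which restrains transposons in germ cells, was 0.150, 0.212 and 0 TPM in *Brg1-ECko* against 1.22, 1.33 and 2.01 TPM in *Brg1/Chd4-ECdko* LSECs (log2 fold change 1.16, adjusted p = 0.056).

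Genes of muscle and nerve cells made up a further pair. *Tnni3* (chr7:4521300-4527228, minus strand), the inhibitory troponin subunit of heart muscle, measured 1.69, 3.37 and 1.40 TPM in *Brg1-ECko* against 11.04, 12.8 and 15.8 TPM in *Brg1/Chd4-ECdko* LSECs. Its log2 fold change was 2.21 ± 0.36 (SE, limma adjusted p = 0.031) and it was 2.45 ± 0.36 in *Chd4-ECko* against control. The call was lost when any 1 *Brg1/Chd4-ECdko* library or *Brg1-ECko* replicate 3 was left out (limma adjusted p from 0.064 to 0.32). Of 16 tested muscle genes, 14 were above 0, against 66.4% of all tested genes, and only *Tnni3* passed. Their median of 0.56 became 0.36 without *Brg1/Chd4-ECdko* replicate 3 and 0.86 without its replicate 1. *Tnnt2*, the heart form of troponin T, was at 7.41, 18.7 and 19.98 TPM and at 21.8, 53.0 and 41.3 TPM (log2 fold change 1.30, adjusted p = 0.31). *Nefh* (chr11:4888740-4898130, minus strand), the heavy neurofilament gene, measured 1.45, 2.16 and 1.95 TPM in *Brg1-ECko* against 7.75, 9.95 and 6.66 TPM in *Brg1/Chd4-ECdko* LSECs. Its 3 *Chd4-ECko* values of 13.8, 20.2 and 14.03 TPM were all higher than these. The log2 fold change was 1.67 ± 0.20 (SE, adjusted p = 0.0024) in *Brg1/Chd4-ECdko* against *Brg1-ECko* and 2.91 ± 0.20 in *Chd4-ECko* against control. *Nefh* was 1 of 16 tested neuronal and neuroendocrine genes to pass, with 15 above 0 (66.4% of all tested genes) and a list median of 0.31. Without *Brg1-ECko* replicate 1, 11 were above 0 and the median was 0.10, and without its replicate 3 the median was 0.48.

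Signalling and structural genes formed the rest. *Rgs4* (chr1:169569046-169575218, minus strand), which switches off G protein signals, measured 2.73, 4.77 and 5.93 TPM in *Brg1-ECko* against 13.8, 23.8 and 27.0 TPM in *Brg1/Chd4-ECdko* LSECs (log2 fold change 2.03 ± 0.28 SE, limma adjusted p = 0.0088). *Chd4-ECko* LSECs held only 7.14, 8.13 and 12.5 TPM of it, against 5.51, 4.62 and 6.26 TPM in controls. *Jag2* (chr12:112871421-112893437, minus strand), a Notch ligand, rose from 2.15, 2.10 and 2.65 TPM to 5.84, 7.33 and 9.48 TPM (log2 fold change 1.35 ± 0.19 SE, adjusted p = 0.0091). For *Jag2* and *Rgs4*, each *Brg1/Chd4-ECdko* library exceeded each library of the other 3 genotypes. Their choice as DEGs against *Brg1-ECko* partly fixes this, and the share of all tested genes that do the same was not counted. Of 18 tested arterial and venous genes, only *Jag2* passed, 13 were above 0, next to 66.4% of all tested genes, and the median was 0.29, with 0.18 without *Brg1-ECko* replicate 1 and 0.17 without *Brg1/Chd4-ECdko* replicate 3.

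*Septin1* (chr7:126812948-126832302, minus strand), a cytoskeletal GTPase gene common in blood cells, had the highest TPM of the 12 DEGs other than *Hbb-bh1* and the smallest SE of the 13. It measured 16.0, 17.0 and 19.8 TPM in *Brg1-ECko* against 49.4, 53.8 and 54.8 TPM in *Brg1/Chd4-ECdko* LSECs (log2 fold change 1.53 ± 0.13 SE, limma adjusted p = 5.7e-05). Controls held 32.9, 34.3 and 31.5 TPM, so that *Septin1* was lower in *Brg1-ECko* than in control LSECs (log2 fold change -0.87, limma adjusted p = 0.047, with the same *Brg1-ECko* libraries) and higher than control in *Chd4-ECko* (1.16 ± 0.13 SE). *Dusp2* (chr2:127177957-127180296, plus strand), a phosphatase of MAP kinases, rose from 1.13, 2.29 and 3.14 TPM to 7.80, 7.94 and 6.20 TPM (log2 fold change 1.43 ± 0.23 SE, adjusted p = 0.031). Controls held 4.05, 3.15 and 4.46 TPM of *Dusp2*. Of the 13 DEGs, 7 had a lower mean TPM in *Brg1-ECko* than in control LSECs, and all 13 were higher in each *Brg1/Chd4-ECdko* than in each control library. *Lhfpl4* (chr6:113145047-113172348, minus strand), a partner of GABA receptors at synapses, rose from 0.436, 0.729 and 0.874 TPM to 2.39, 3.83 and 3.93 TPM (1.37 ± 0.21 SE, adjusted p = 0.016). *Efcab2* (chr1:178233199-178312286, plus strand), an EF-hand protein gene of motile cilia, rose from 7.44, 7.03 and 7.66 TPM to 14.04, 18.1 and 16.3 TPM (1.03 ± 0.15 SE, adjusted p = 0.016), the smallest change of the 13. *Lhfpl4* and *Efcab2*, too, were higher in each *Brg1/Chd4-ECdko* library than in any library of the other 3 genotypes, with the same limits as for *Jag2* and *Rgs4*. *Nefh*, *Septin1* and *Tcfl5* overlap protein-coding genes of the opposite strand in the annotation, whose own log2 fold changes were 0.06 for *Ap1b1* (beside *Nefh*), 0.58 for *Mylpf* and 0.04 for *Zfp553* (beside *Septin1*) and -0.07 for *Col9a3* (beside *Tcfl5*), with none passing. *Tnni3* and *Catsperz* overlap protein-coding genes of the same strand. These are *Dnaaf3* (log2 fold change 0.37, not passing) and *Kcnk4* (at most 0.122 TPM in any LSEC library, not tested). Whether the counting used strand is not given in the sources used here, and reads of such pairs may be shared. *Trap1a*, *Xlr4a*, *Lhfpl4* and *Tex19.1* stayed under 1 TPM in all *Brg1-ECko* libraries and entered the test through the genotypes in which they are high.

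The promoter sequences of 6 of the 13 DEGs are shown because these genes moved together while their start regions differ in make-up. RefSeq promoter windows (GRCm38.p6 table) were matched by symbol for 9 of the 13. The windows for *Hbb-bh1*, *Nefh*, *Septin1* and *Efcab2* are not used here. Each sequence ends just before the outermost annotated start of the gene, reads 5′ to 3′ on the strand of the gene and was placed on GRCm39 by an exact match. Capitals mark 4 motifs searched on both strands, namely the GATA factor motif AGATAA, the KLF factor motif CACCC, the CCAAT box and the TATA box motif TATAAA. Long non-coding RNA genes of the opposite strand are annotated across the windows of *Tcfl5*, *Trap1a*, *Dusp2* and *Lhfpl4* and were not analysed here.
Tcfl5, chr2:180284557-180284706, minus strand: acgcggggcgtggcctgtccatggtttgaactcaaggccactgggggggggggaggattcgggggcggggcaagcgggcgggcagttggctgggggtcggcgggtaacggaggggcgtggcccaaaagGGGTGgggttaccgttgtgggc
Trap1a, chrX:138234217-138234366, plus strand: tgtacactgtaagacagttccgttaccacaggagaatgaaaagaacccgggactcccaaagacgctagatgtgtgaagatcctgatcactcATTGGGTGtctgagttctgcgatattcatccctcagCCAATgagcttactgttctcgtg
Xlr4a, chrX:72126141-72126290, minus strand: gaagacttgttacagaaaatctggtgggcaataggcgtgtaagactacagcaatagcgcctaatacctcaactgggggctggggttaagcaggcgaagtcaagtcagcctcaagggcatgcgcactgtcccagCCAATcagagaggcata
Rgs4, chr1:169575219-169575368, minus strand: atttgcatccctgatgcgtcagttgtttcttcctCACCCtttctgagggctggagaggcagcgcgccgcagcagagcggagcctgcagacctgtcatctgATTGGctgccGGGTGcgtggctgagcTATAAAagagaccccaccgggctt
Dusp2, chr2:127177829-127177956, plus strand: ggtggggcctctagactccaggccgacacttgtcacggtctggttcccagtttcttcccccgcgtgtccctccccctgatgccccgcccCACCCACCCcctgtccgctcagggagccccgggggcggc
Lhfpl4, chr6:113172349-113172498, minus strand: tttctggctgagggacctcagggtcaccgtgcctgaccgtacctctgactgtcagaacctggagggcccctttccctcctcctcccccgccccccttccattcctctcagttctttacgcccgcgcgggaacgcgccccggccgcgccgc

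In the 250 bases before the RefSeq start, CACCC occurred in 7 of the 9 promoters, CCAAT in 4, TATAAA in 1 and AGATAA in 0. Over the 10573 tested genes with a window, the shares were 57.6%, 36.8%, 6.64% and 5.99%. CpG dinucleotides, the sites of DNA methylation, varied among the 9 promoters from 0.19 of the number expected from base composition in *Tnni3* to 1.14 in *Jag2*, with a median of 0.62 against 0.72 over all tested genes. Over the 46 matched promoters of the *Chd4-ECko* DEGs described next, the median was 0.31, and 9 of the 46 (19.6%) exceeded a ratio of 0.6, compared with 65.7% of all tested genes. These are counts of letters in fixed windows and were not tested.

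Genes that were higher DEGs in *Chd4-ECko* than in control LSECs mostly had positive fold changes in *Brg1/Chd4-ECdko* against *Brg1-ECko* LSECs, but most of them did not pass the test there. In *Chd4-ECko* against control LSECs, 66 genes were higher DEGs (0.491% of tested genes) and 4 were lower (0.0298%), with 51.6% of tested genes above 0. The size of this list rested on single libraries, with 146 genes without *Chd4-ECko* replicate 1, 31 without its replicate 2, 28 without its replicate 3, 37, 34 and 48 without control replicates 1, 2 and 3, and 102 without *Brg1-ECko* replicate 1, whose spread the fit shares. With *Eif2s3y* as a covariate the list held 32 genes. The levels in the other 6 LSEC libraries did not enter the fold changes that chose the 66, but their spread and the filter did. In *Brg1/Chd4-ECdko* against *Brg1-ECko*, all 66 had a log2 fold change above 0, against 66.4% of tested genes. The groups did not overlap for 40 of the 66 (60.6%, compared with 7.48%), and 41 (62.1%) were higher at an unadjusted p under 0.05 (5.04% of tested genes). The DEG thresholds were passed by 7 of the 66 (10.6%, compared with 0.0967%), namely *Hbb-bh1*, *Trap1a*, *Nefh*, *Tcfl5*, *Tnni3*, *Catsperz* and *Septin1*, which make up 53.8% of the 13. The median log2 fold change of the 66 was 0.53, with a range of 0.03 to 5.15, while the median of the same genes in the comparison that chose them was 1.26. Of the 66, 6 stayed under 1 TPM in all control and *Brg1-ECko* libraries and entered the test through *Chd4*-deficient ones, and among the other 60 the groups did not overlap for 35, 6 passed and the median was 0.45. With each comparison fitted on its own 6 libraries alone, 97 genes were higher DEGs in *Chd4-ECko*, of which 90 were above 0 in the other comparison (92.8%), 43 did not overlap (44.3%), 42 were higher at an unadjusted p under 0.05 (43.3%, compared with 4.03% of tested genes) and 8 passed (8.25%), with a median of 0.43. Without *Brg1-ECko* replicate 1, 62 of the 66 were above 0, 11 passed and the median was 0.57. Over the 6 libraries of the comparison left out in turn, 62 to 65 of the 66 were above 0, and 4 passed without *Brg1/Chd4-ECdko* replicate 3. When the list was chosen again without 1 *Chd4-ECko* or control library, 132 of 146 were above 0 without *Chd4-ECko* replicate 1 (90.4%), 33 of 34 without control replicate 2, 46 of 48 without control replicate 3, and all of the list in the other 3 cases. The share at an unadjusted p under 0.05 ranged over these lists from 39.0% (57 of 146, with a median of 0.35, without *Chd4-ECko* replicate 1) to 82.1% (23 of 28, without its replicate 3). The share that passed ranged from 7.53% (without *Chd4-ECko* replicate 1) to 26.5% (9 of 34, without control replicate 2), with 22.6% without *Chd4-ECko* replicate 2, 17.9% without its replicate 3 and 18.9% without control replicate 1.

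**Figure D2:**
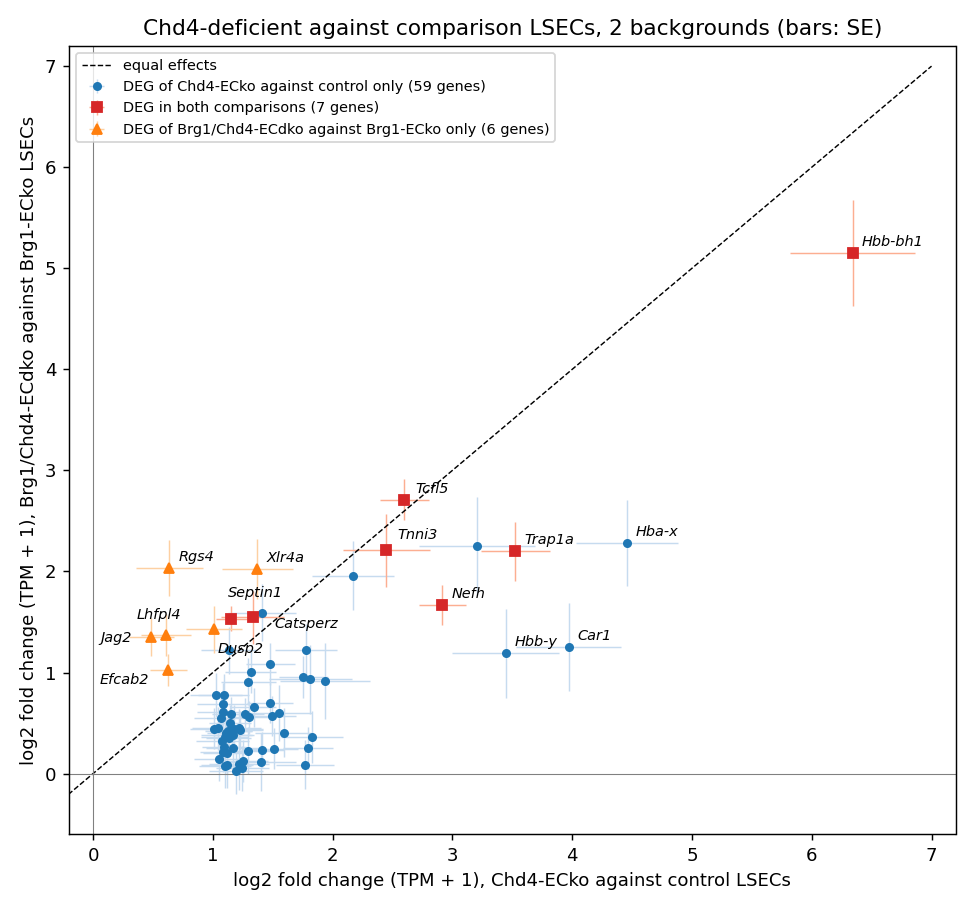
Log2 fold change on the TPM + 1 scale of *Brg1/Chd4-ECdko* against *Brg1-ECko* LSECs (vertical axis) and of *Chd4-ECko* against control LSECs (horizontal axis), for the genes that were DEGs in either comparison and higher; bars are SE and the dashed line marks equal effects. All plotted genes lie above 0 on both axes, and 7 of the 66 *Chd4-ECko* DEGs passed in both comparisons.

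The 10 genes with the largest *Chd4-ECko* effect were *Hbb-bh1*, *Hba-x*, *Car1*, *Trap1a*, *Hbb-y*, *Ptprcap*, *Nefh*, *Tcfl5*, *Tnni3* and *Alox5*. All 10 were higher without overlap in *Brg1/Chd4-ECdko* than in *Brg1-ECko* LSECs, against 7.48% of all tested genes. For *Hbb-bh1*, *Trap1a*, *Nefh*, *Tcfl5* and *Tnni3* this is largely fixed, since they are among the 13 DEGs chosen on these values. *Trap1a* also entered the test through *Chd4*-deficient libraries. *Car1*, a red blood cell carbonic anhydrase, had the widest gap between the 2 effects among these 10 genes. It reached 20.2, 58.8 and 18.1 TPM in *Chd4-ECko* LSECs but 4.33, 5.57 and 3.01 TPM in *Brg1/Chd4-ECdko*, against 2.14, 1.91 and 0.136 TPM in *Brg1-ECko* (log2 fold change 1.25 ± 0.44 SE, limma adjusted p = 0.53). *Alox5*, the leukotriene-forming lipoxygenase of myeloid cells, was 2.75, 0.798 and 2.46 TPM in *Brg1-ECko* against 7.49, 12.1 and 11.4 TPM in *Brg1/Chd4-ECdko* LSECs (1.96 ± 0.34 SE, adjusted p = 0.051), just outside the threshold. *Catsperz*, just inside it, had an adjusted p of 0.043. *Ptprcap*, a partner of the leukocyte phosphatase CD45, was 6.47, 1.81 and 0.210 TPM and 11.6, 17.0 and 11.1 TPM (2.25 ± 0.48 SE, adjusted p = 0.11), and it passed without *Brg1-ECko* replicate 1 at 2.92 (adjusted p = 0.0022).

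Genes shared across blood cells lay mostly above 0. Of 18 tested, 17 were above 0 (66.4% of all tested genes) and 10 were higher without overlap (7.48%), but 0 passed, and the median was 0.39 compared with 0.87 in *Chd4-ECko* against control. *Cd37*, a tetraspanin of leukocytes, was 4.65, 3.85 and 5.16 TPM in *Brg1-ECko* against 7.23, 8.48 and 9.64 TPM in *Brg1/Chd4-ECdko* LSECs (log2 fold change 0.77, limma adjusted p = 0.11). *Itgb2*, the beta chain of leukocyte integrins, had a log2 fold change of 0.62 (adjusted p = 0.31). Over the 6 libraries left out in turn, 16 or 17 of the 18 were above 0 and the median stayed between 0.32 and 0.46. Myeloid genes had a median of 0.13 over 23 tested genes with 0 passing. This median turned to -0.020 without *Brg1-ECko* replicate 1, became 0.013 without *Brg1/Chd4-ECdko* replicate 1 and 0.32 without replicate 2 of either group. Their median was 1.02 in *Chd4-ECko* against control. The 3 leukocyte markers (*Ptprc*, *Lcp1*, *Coro1a*) summed to 114 to 125 TPM in *Brg1/Chd4-ECdko* and 90.5 to 115 TPM in *Brg1-ECko* LSECs, and the 4 myeloid markers (*Adgre1*, *Csf1r*, *Spi1*, *Cd68*) to 99.6 to 195 TPM and 101 to 153 TPM. None of these 7 markers was at 0 and none separated the groups. Their part in the values of the blood cell genes was not tested.

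Few genes were lower in *Chd4-ECko* than in control LSECs. The 4 lower DEGs of *Chd4-ECko* LSECs were *Gja5* and *Gja4*, which encode gap junction proteins of arterial endothelium, *Ly6a*, a surface antigen of stem and endothelial cells, and *Chp2*. In *Brg1/Chd4-ECdko* against *Brg1-ECko* LSECs all 4 were below 0, at -0.75, -0.10, -0.82 and -1.10 on the log2 scale, and none passed in limma. Of all tested genes, 66.4% were above 0. For *Gja4* the sign rested on single libraries, with 0.024 without *Brg1/Chd4-ECdko* replicate 1 and 4.0e-05 without *Brg1-ECko* replicate 3. *Gja5* was 5.56, 6.78 and 10.3 TPM in *Brg1-ECko* against 3.65, 3.29 and 5.06 TPM in *Brg1/Chd4-ECdko*, with no overlap. *Chp2* was 3.29, 6.37 and 7.45 TPM and 2.25, 1.71 and 2.07 TPM, and it passed without *Brg1-ECko* replicate 1 (log2 fold change -1.39, adjusted p = 0.033).

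The fold changes of the 2 comparisons were subtracted in 1 limma contrast, and 0 of 13444 genes (0.00%) passed an adjusted p under 0.05 (smallest 0.67), while 560 genes (4.17%) had an unadjusted p under 0.05. The 2 arms are not alike, since *Brg1/Chd4-ECdko* and *Brg1-ECko* share Cre and the *Brg1* genotype whereas *Chd4-ECko* and control do not, so the contrast does not test whether an effect of *Chd4* loss depends on BRG1. The 13 DEGs were chosen by a fold change that enters the subtraction, and their differences are given as a description, with no test. *Nefh* and *Trap1a* had smaller fold changes in *Brg1/Chd4-ECdko* against *Brg1-ECko* than in *Chd4-ECko* against control, with differences of -1.24 ± 0.28 and -1.33 ± 0.41 (SE) on the log2 scale. *Rgs4*, *Lhfpl4* and *Jag2* had larger ones, with differences of 1.40 ± 0.39, 0.76 ± 0.29 and 0.87 ± 0.27 (SE). *Tcfl5* and *Tnni3* differed by 0.11 ± 0.29 and -0.24 ± 0.51 (SE). All 13 DEGs were also higher in each *Chd4-ECko* than in each control library. This held for 8.70% of tested genes, which is no measure for *Trap1a*, *Xlr4a* and *Lhfpl4*, since they stayed under 1 TPM in all control and *Brg1-ECko* libraries and entered the test through *Chd4*-deficient ones. Of the 13, 8 had a lower mean in *Brg1/Chd4-ECdko* than in *Chd4-ECko*.

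The 5 genes with the smallest p in this contrast were *Thy1*, *Tulp1*, *Prl3b1*, *Fcrls* and *Hmga1b*, all at an adjusted p of 0.67 in limma. *Thy1*, a surface glycoprotein of lymphoid and mesenchymal cells, stood at 13.1, 13.6 and 12.4 TPM in *Chd4-ECko* LSECs and at 2.74, 2.90 and 3.03 TPM in *Brg1/Chd4-ECdko*, next to 2.82, 3.41 and 2.96 TPM in controls. *Prl3b1*, a placental lactogen, was at 3.48, 3.95 and 2.30 TPM in *Chd4-ECko* and at 0, 0.502 and 0 TPM in *Brg1/Chd4-ECdko* LSECs. Both were *Chd4-ECko* DEGs whose change in the *Brg1/Chd4-ECdko* comparison did not pass (log2 fold change 0.25 and 0.09). *Hmga1b* was at 40.5, 1.77 and 33.0 TPM in control LSECs and at 161, 7.30 and 137 TPM in control non-EC cells of replicates 1 to 3. In *Brg1-ECko* it was at 3.55, 22.2 and 1.25 TPM in LSECs and at 6.13, 147 and 5.05 TPM in non-EC cells. The same replicate number thus stood apart in both fractions, and the cause was not tested.

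Genes tied to inflammation and plasmin in this model were followed as well. *Plaur*, the urokinase receptor, measured 6.27, 5.62 and 6.38 TPM in *Brg1-ECko* against 8.23, 11.5 and 9.06 TPM in *Brg1/Chd4-ECdko* LSECs, with no overlap (log2 fold change 0.57 ± 0.17 SE, limma adjusted p = 0.37). In *Chd4-ECko* LSECs it reached 13.7, 13.9 and 15.4 TPM. *Icam1*, an endothelial adhesion molecule that binds leukocytes, measured 33.0, 32.0 and 32.3 TPM in *Brg1-ECko* against 35.5, 37.3 and 46.2 TPM in *Brg1/Chd4-ECdko*, also with no overlap (0.27 ± 0.13 SE, adjusted p = 0.82). *Vcam1* (-0.19), *Tnf* (0.47), *Rela* (0.07) and *Il1b* (-0.42) overlapped between the groups and did not pass. *Il6* stayed under 1 TPM in all 6 libraries and was not tested. Of 22 tested genes of the NFkB response, 12 were above 0 and 0 passed, and of 23 interferon response genes 18 were above 0 and 0 passed, next to 66.4% of all tested genes above 0. The interferon count became 11 without *Brg1/Chd4-ECdko* replicate 3, where the list median of 0.18 turned to -0.012.

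**Figure D3:**
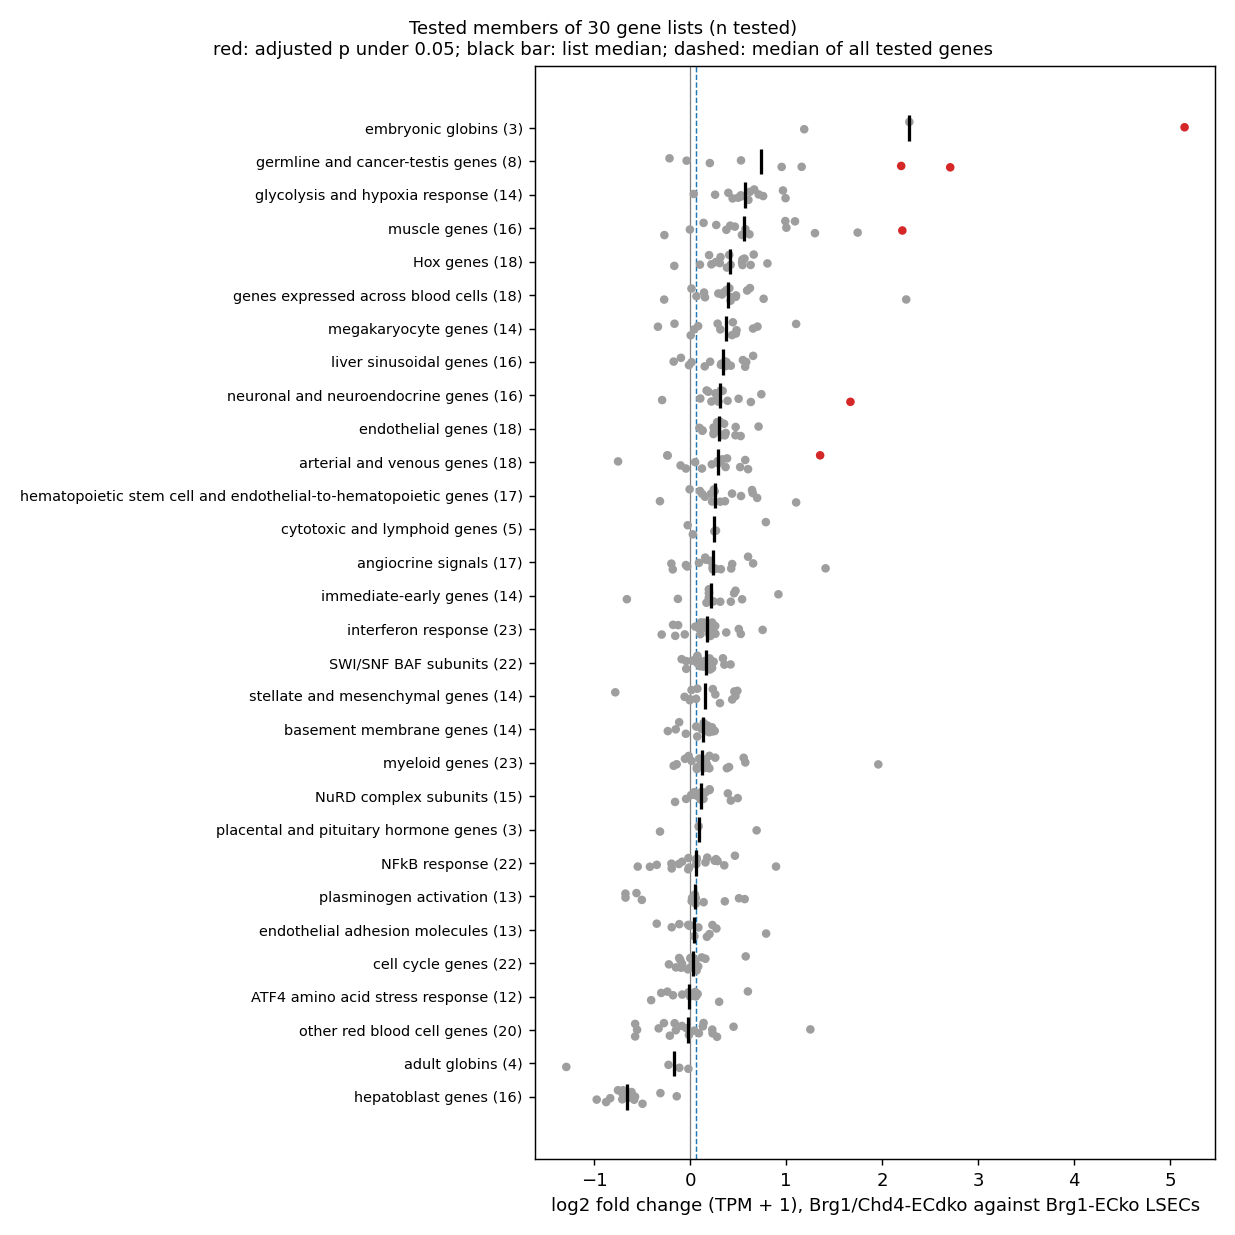
Log2 fold change on the TPM + 1 scale of *Brg1/Chd4-ECdko* against *Brg1-ECko* LSECs for the tested members of 30 gene lists, ordered by list median. Grey points are single genes, red points passed an adjusted p under 0.05, black bars are list medians, and the dashed line at 0.07 is the median of all tested genes; 6 red points appear, in the embryonic globin, germ line, muscle, neuronal and arterial lists.

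No member of the glycolysis and hypoxia list passed in the main fit. All 14 of its tested genes were above 0 (66.4% of all tested genes), 11 were higher without overlap (7.48%), and 10 were higher at an unadjusted p under 0.05 (5.04%), with a median of 0.57 against 0.07 over all tested genes. Over the 6 libraries left out in turn, 13 or 14 were above 0 and the median stayed between 0.53 and 0.64. *Egln3*, an oxygen-sensing hydroxylase, measured 12.4, 16.5 and 19.8 TPM in *Brg1-ECko* against 26.7, 38.5 and 32.4 TPM in *Brg1/Chd4-ECdko* LSECs (log2 fold change 0.97, limma adjusted p = 0.11). *Bnip3*, a mitophagy gene induced by low oxygen, measured 78.0, 72.6 and 61.5 TPM and 118, 197 and 121 TPM (0.99, adjusted p = 0.12). *P4ha1*, a collagen hydroxylase, had a log2 fold change of 0.67 (adjusted p = 0.19). With the replicate number as a block, *Egln3* had an adjusted p of 0.029 in limma. With array weights, *Egln3*, *Bnip3* and *P4ha1* had adjusted p of 0.0021, 7.6e-04 and 0.0047 in limma. The list median was 0.32 in *Chd4-ECko* against control and 0.34 in the non-EC cells of the same genotypes as here. *Slc16a3*, the lactate exporter, and *Pfkp*, a glycolytic enzyme, lie outside the list and were named after their values were seen. They stood at 0.82 and 0.98 (limma adjusted p = 0.056 for both), just outside the adjusted p threshold and also under a log2 fold change of 1. Both had an adjusted p under 0.05 in limma with the replicate number as a block (0.032 and 0.028). The same held with TPM rescaled without mitochondrial genes (0.012 and 0.024).

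Genes of the sinusoidal and general endothelium had medians above 0 that fell when the library that stood apart was left out. Of 16 tested liver sinusoidal genes, 13 were above 0 (66.4% of all tested genes) and 0 passed, with a median of 0.34 that became 0.16 without *Brg1-ECko* replicate 1. Among them, *Stab1*, a scavenger receptor, was 45.5, 46.5 and 63.0 TPM in *Brg1-ECko* against 67.8, 84.2 and 74.8 TPM in *Brg1/Chd4-ECdko* LSECs (log2 fold change 0.55, limma adjusted p = 0.38). For 18 general endothelial genes the median was 0.30 with that library and 0.11 without it, and for 18 Hox genes it was 0.41 and 0.23, with 0.23 also without *Brg1/Chd4-ECdko* replicate 3. Hepatoblast genes went the other way, with 0 of 16 above 0, 0 passing and a median of -0.65. Without that library 10 were above 0 and the median was 0.02, and it was -1.04 without *Brg1-ECko* replicate 2 and -0.40 without *Brg1/Chd4-ECdko* replicate 3. NuRD subunits had a median of 0.12 and SWI/SNF subunits 0.17, with 0 passing in either list. Without *Brg1-ECko* replicate 1 these were 0.072 and 0.19, without *Brg1/Chd4-ECdko* replicate 1 they were 0.20 and 0.25, and without its replicate 3 they were 0.056 and 0.059. *Chd3*, the paralog of *Chd4*, had a log2 fold change of 0.50 (adjusted p = 0.75).

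Without *Brg1-ECko* replicate 1, 19 genes beyond the 12 passed, 13 higher and 6 lower. The higher ones included *Ptprcap*, *Alox5* and *Snhg11*, and the platelet and T cell adaptor gene *Lat*, whose levels were 14.5, 4.47 and 5.31 TPM in *Brg1-ECko* against 18.2, 23.6 and 23.97 TPM in *Brg1/Chd4-ECdko* LSECs (log2 fold change 1.49 with all libraries and 1.95 without, limma adjusted p = 0.090 and 1.5e-04). The 3 megakaryocyte markers (*Pf4*, *Gp9*, *Itga2b*) summed to 449 TPM in it and to 147 to 279 TPM in the other 5 libraries, and their part in these calls was not tested. The lower ones included *Tagln*, *Myh11* and *Actg2*, smooth muscle genes of the contractile apparatus, at -1.26, -1.39 and -1.46. These were picked from the calls and belong to no fixed list. Of 14 tested stellate and mesenchymal genes, 7 were above 0 without that library, with a median of -0.00043. *Myh11* was 4.11, 11.2 and 9.61 TPM in *Brg1-ECko* against 3.25, 2.75 and 4.17 TPM in *Brg1/Chd4-ECdko* LSECs.

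The same genotypes were compared in the non-EC cells left after CD146 selection, where 0 of 12223 tested genes (0.00%) were DEGs in limma, and 1558 (12.7%) had an unadjusted p under 0.05. Of the 13 LSEC DEGs, 11 were tested there, all 11 were above 0 (51.2% of the genes tested there) and 0 passed. *Trap1a* entered that test through *Chd4*-deficient embryos alone, so its sign is partly fixed by the filter. *Hbb-bh1* measured 1.58, 6.76 and 2.28 TPM in *Brg1-ECko* against 21.4, 30.6 and 45.2 TPM in *Brg1/Chd4-ECdko* non-EC cells, again with no overlap (log2 fold change 2.99 ± 0.68 SE, adjusted p = 0.24). *Tcfl5* measured 1.37, 1.03 and 1.26 TPM and 4.31, 6.24 and 5.30 TPM (1.49 ± 0.26 SE, adjusted p = 0.22). *Trap1a*, *Tnni3*, *Xlr4a*, *Jag2*, *Nefh*, *Septin1* and *Efcab2* did not overlap between the groups either, and 16.9% of the genes tested there were higher without overlap. *Rgs4* stayed under 1 TPM in all of these non-EC libraries.

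**Figure D4:**
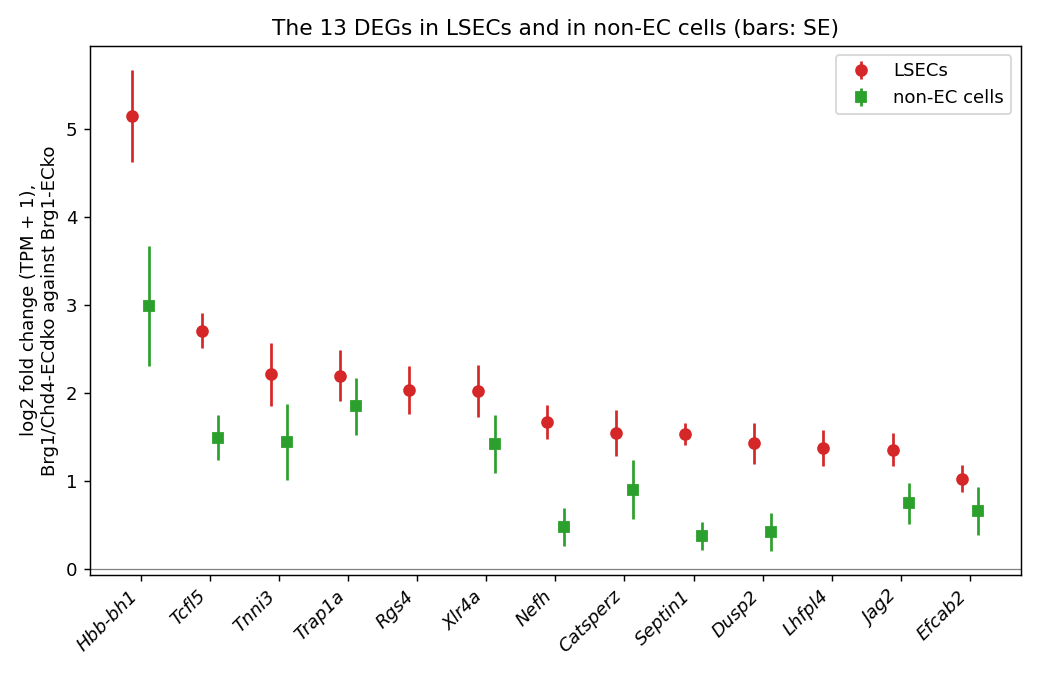
Log2 fold change on the TPM + 1 scale of *Brg1/Chd4-ECdko* against *Brg1-ECko* (vertical axis) for the 13 DEGs in LSECs (circles) and in non-EC cells (squares); bars are SE. The non-EC value lies below the LSEC value for the 11 genes tested in both fractions, which were chosen by their LSEC change, so this is a description and the test of the difference passed for 0 of 13444 genes; *Rgs4* and *Lhfpl4* were tested in LSECs only.

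The difference between the effects in LSECs and non-EC cells was tested in 1 model of all 24 libraries, and 0 of 13444 genes (0.00%) passed an adjusted p under 0.05 in limma, with 619 (4.60%) at an unadjusted p under 0.05. The 2 fractions were split from the same livers, which this model does not use. With the LSEC and non-EC library of each genotype and number as a block, 0 of 13444 passed (smallest adjusted p 0.088 in limma, 911 at an unadjusted p under 0.05), and with the replicate number alone as a block *Septin1* and *Rgs4* passed (adjusted p = 0.019 and 0.027). The 13 DEGs were chosen by the LSEC effect that enters this difference. In the model without blocks, *Septin1* and *Rgs4* came nearest to passing, at a difference of 1.16 ± 0.20 and 1.95 ± 0.34 (SE, limma adjusted p = 0.089 for both). In that model *Nefh* and *Tcfl5* differed by 1.19 ± 0.29 and 1.22 ± 0.33 (SE), and *Trap1a* by 0.35 ± 0.45. With each pair of libraries as a block, *Hbb-bh1* and *Septin1* came nearest, at 2.16 ± 0.31 and 1.16 ± 0.17 (SE, limma adjusted p = 0.088 for both). *Rgs4* was then at 1.95 ± 0.33 (SE, adjusted p = 0.17). In controls, 5 of the 13 had a higher mean TPM in non-EC cells than in LSECs, compared with 53.1% of tested genes.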

How the data were processed

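RNA of CD146-selected LSECs and of the remaining non-EC cells of E12.5 livers was sequenced as poly-A libraries. Cells were dissociated with inhibitors of transcription and translation, and red blood cells were lysed. After runs of guanine were trimmed, the authors used CLC Genomics Workbench and the GRCm39 (mm39) build, and deposited TPM values for 25361 genes. Another 8 columns hold the authors' group means and were not used. The study's methods give 1 nominal depth for the sequencing. The depth each library reached cannot be read from TPM, so values carry no counting interval, and every library sums to 1000000.

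Genes that reached 1 TPM in 3 or more of 12 libraries were kept, and their log2(TPM + 1) values were fitted in limma 3.58.1 (R 4.3.3) with 4 genotype means and a mean-expression trend. LSECs and non-EC cells were fitted separately, and in 1 model of 24 libraries for the difference between them. P-values were adjusted by Benjamini-Hochberg over all tested genes, and DEGs required an adjusted p under 0.05 and an absolute log2 fold change above 1. Fold changes on this scale understate low genes. Groups came from the sample labels. LSECs and non-EC cells were separated from the same livers. *Eif2s3y* lay on the same side of 5 TPM in both fractions of all 12 pairs of 1 genotype and number. All control libraries were above 5 TPM, so the control pairs could not differ, and a part of the pairs of unlike numbers lay on the same side too. Within pairs, deviations from group means correlated at 0.13 to 0.42 across genes (at most 0.16 between unlike numbers). A fit with each pair as a block was therefore added after seeing the data.

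The genes named are *Chd4* and *Smarca4*, up to 20 higher and 10 lower DEGs, up to 3 members of each list, the 10 largest *Chd4-ECko* DEGs, 5 genes with the smallest p for the difference between the 2 LSEC comparisons, markers and the genes the study follows. Others named, which include overlapping and family genes, *Slc16a3*, *Pfkp* and those that passed without 1 library, were chosen after their values were seen. Members and lists were chosen with earlier results of these data known. Alternatives changed the pseudocount, filter, scaling, weights, covariates, block and libraries. The scripts were tested on simulated data. A few named genes are not reported here.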

Additional observations from a re-analysis of the deposited data

How the results depend on the processing

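The 13 higher DEGs had positive log2 fold changes under all alternatives that tested them, and *Hbb-bh1*, *Tcfl5*, *Nefh* and *Septin1* passed in all 17. *Catsperz* passed in 5 of 17, *Dusp2* in 9 of 17, *Tnni3* in 10 of 17, *Xlr4a* in 10 of 16, *Efcab2* in 12 of 17, *Lhfpl4* in 12 of 16, *Jag2* in 13 of 16, *Rgs4* in 15 of 17 and *Trap1a* in 15 of 16. The DEG count was 8 when genes had to average 5 TPM, 8 with quantile normalization, 112 with limma array weights (87 higher and 25 lower) and 28 with *Afp* as a covariate (22 higher and 6 lower), the last chosen after seeing the data. It ranged from 4 to 31 when 1 library was left out, with 31 without *Brg1-ECko* replicate 1, 5 without *Brg1/Chd4-ECdko* replicate 2 and 4 without its replicate 3. A pseudocount of 0.1 TPM gave 12 higher and 1 lower. The *Chd4-ECko* DEGs were chosen again under each setting, and the count that passed, 7 of 66, became 11 of 69 without a trend, 35 of 91 with array weights, 15 of 112 with the *Afp* covariate and 5 of 32 with the *Eif2s3y* covariate. It ranged from 4 of 53 (without *Brg1/Chd4-ECdko* replicate 3) to 15 of 102 (without *Brg1-ECko* replicate 1), with 11 of 146 without *Chd4-ECko* replicate 1. In non-EC cells the count of 0 became 51 with array weights. The count for the difference between the 2 LSEC comparisons ranged from 0 to 3, with 3 (*Hmga1b*, *Cd1d2* and *H2-T22*) without control replicate 2. The count for LSECs against non-EC cells became 2 with quantile normalization (*Rgs4* and *Septin1*, adjusted p = 0.046 in limma) and 92 with array weights, and ranged from 0 to 2 when 1 library was left out, with 2 without *Brg1-ECko* replicate 1 and 2 without *Brg1/Chd4-ECdko* replicate 1. The cause of these shifts was not tested.

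With the replicate number as a block, the counts were 25 DEGs in LSECs, 13 of 82 *Chd4-ECko* DEGs, 1 in non-EC cells, 0 for the difference between the 2 LSEC comparisons and 2 for LSECs against non-EC cells (*Septin1* and *Rgs4*). With the LSEC and non-EC library of each liver as a block, the last count was 0. The labels do not say what a number marks, the deviations of same-numbered libraries correlated at 0.17, 0.085 and 0.32 across genes, and *Brg1/Chd4-ECdko* replicate 2 correlated best with *Brg1-ECko* replicate 1 (0.15), so the genotypes were not treated as paired.

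Directions turned for genes that did not pass. *Smarca4* was at -0.0074 with TPM rescaled without mitochondrial genes and -0.031 with array weights, and *Zfp553* at -0.031 with quantile normalization and -0.0035 with the *Afp* covariate. Leaving out 1 library gave ranges of -0.31 to 0.012 for *Chd4*, -0.097 to 0.15 for *Smarca4*, -0.048 to 0.15 for *Zfp553*, -0.36 to 0.11 for *Col9a3*, -0.29 to 0.024 for *Gja4* and -0.11 to 0.20 for *Prl3b1*. Without read counts, precision at low TPM rests on the spread of 3 libraries.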

Other observations

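Further genes separated the *Brg1/Chd4-ECdko* from the *Brg1-ECko* LSEC libraries without passing the test in limma. *Dll4*, an arterial Notch ligand like *Jag2*, stood at 11.4, 16.4 and 16.3 TPM in *Brg1-ECko* against 20.2, 24.7 and 22.9 TPM in *Brg1/Chd4-ECdko* LSECs (log2 fold change 0.60 ± 0.17 SE, adjusted p = 0.32). The endothelial receptor gene *Notch4* had a log2 fold change of 0.52 (adjusted p = 0.62). *Runx1* and *Gata2*, transcription factor genes of blood formation from endothelium, had log2 fold changes of 0.70 and 0.53 (adjusted p = 0.76 and 0.50). *Klf2*, a flow-responsive transcription factor gene of endothelium, went the other way, from 15.1, 14.3 and 20.5 TPM to 10.4, 8.203 and 11.8 TPM (log2 fold change -0.66 ± 0.19 SE, adjusted p = 0.34).

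*Rcor2*, which encodes a CoREST corepressor, and *Fgf23*, which encodes a phosphate-regulating hormone of bone, were just outside the adjusted p threshold in limma (log2 fold change 0.84 and 1.41, adjusted p = 0.053 and 0.056). *Rcor2* was also under the log2 fold change of 1 required of DEGs. *Rcor2* levels were 13.4, 13.1 and 14.4 TPM in *Brg1-ECko* against 21.4, 26.8 and 28.1 TPM in *Brg1/Chd4-ECdko* LSECs. *Fgf23* levels were 0.0776, 1.24 and 0.373 TPM against 2.26, 3.05 and 3.73 TPM.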
